A study of Mus musculus with 3 samples.

Results

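The loci of 10 homeobox genes that pattern the anterior neural tube were followed through oncogene activation and loss of niche factors in mouse colon organoids: Otx1, Otx2, Emx1, Emx2, En1, En2, Gbx1, Gbx2, Barhl1 and Barhl2. A locus was every 200-bp bin of the deposited methylation table that overlaps the gene or the 5 kb on either side of it. The 10 loci hold 982 of the 12313737 bins in the table, and all 10 genes were found. The members were chosen by name, with earlier results of these data known.

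These genes encode transcription factors that bind DNA through a homeodomain, and they form 5 pairs of paralogs. Otx1 and Otx2 specify forebrain and midbrain, Emx1 and Emx2 pattern the cerebral cortex, and Gbx1 and Gbx2 act behind the Otx domain, where Gbx2 helps set the boundary between midbrain and hindbrain. En1 and En2 are engrailed factors of that boundary region, and Barhl1 and Barhl2 act in neurons, hair cells and retina. None of them is a defining gene of colon epithelium. Like many developmental regulators, such genes tend to lie in CpG-rich DNA that Polycomb proteins keep silent in tissues that do not use them. In human tumours, CpG islands of this kind often become methylated.

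The organoids came from crypts of the first 2.5 cm of the proximal colon of male mice about 40 days old, heterozygous for a Cre-activable Braf V600E allele. A lentivirus delivered Cre, and EV denotes the same lentiviral backbone without Cre. The EV library came from organoids kept in full medium, which holds Wnt3a, R-Spondin, Noggin and EGF. The Braf full medium library came from organoids labelled BRAF3 in the same medium. The Braf Base medium library came from BRAF3 organoids selected to grow in Base medium, without stem-cell niche factors. The EV library also carries BRAF3 in its title, so all libraries share that label. Culture lasted 5 months in every group, followed by 3 weeks in the stated medium. The labels do not state how many mice or cultures each library came from. Each group is 1 library, so the Cre step, the culture and the library preparation cannot be told apart. Differences below therefore have no replicate check and no p-value.

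Methylated DNA was captured with a methyl-CpG-binding domain (MBD) protein and sequenced, so coverage rises with the number of methylated CpG sites in a fragment. The authors' log2 values were turned back into read overlaps per bin and expressed as normalised coverage, which averages 0.0597 per bin over the 3 libraries. A 1-kb tile, 5 bins long, was called covered from a coverage of 0.119, which is 2 times that mean. The libraries hold an estimated 5041725 (EV), 8648828 (Braf full medium) and 5985362 (Braf Base medium) reads. The Braf full medium library has a raised background: its median 1-kb tile has a coverage of 0.0392, against 0 in both others. Below, full medium and Base medium stand for the Braf libraries. Around the 10 loci, within 1 Mb on either side, mean coverage was higher in Braf full medium than in EV by 0.47 to 1.27 on the log2 scale. The same surroundings differed by -0.53 to 0.07 between Braf Base medium and EV, and by -1.48 to -0.60 between Base and full medium. These ratios of surroundings are plain, whereas the log2 ratios of loci below have 0.0597 added to each coverage, so the scales differ. Coverage at marker genes cannot show cell identity, because methylation does not measure expression. Over both ends of 19 marker genes of colon epithelium, fibroblasts, immune, endothelial and neural cells, median coverage was 0.0137 in EV, 0.0557 in full and 0.0118 in Base medium with Braf. The lists differed: the 6 ends of the neural genes Elavl4, Tubb3 and Sox10 had medians of 0.0228, 0.116 and 0.322, and the 12 ends of colon epithelium genes 0.0137, 0.0824 and 0.00842. Medians were 0.0183, 0.0713 and 0.0471 for endothelial, 0, 0.0512 and 0.00842 for fibroblast and 0.00228, 0.0245 and 0.0118 for immune genes. The neural ends were uneven, from 0.0101 to 1.15 in Base medium. The high end of Elavl4 had 0.246, 0.120 and 0.677 and that of Sox10 0.0228, 0.272 and 0.573. That of Tubb3, the highest, fell through 1.77, 1.27 and 1.15.

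The start regions of 5 members are shown because their CpG content and their coverage can be set side by side. Each is the 250 bases before a listed transcription start, 5′ to 3′, from RefSeq on GRCm38.p6 (the assembly of mm10), with every CpG in capitals. They lie at chr5:106458167-106458416 (Barhl2, reverse strand), chr1:89931177-89931426 (Gbx2, reverse), chr1:120602237-120602486 (En1, forward), chr6:85187681-85187930 (Emx1, forward) and chr19:59458440-59458689 (Emx2, forward).
Barhl2: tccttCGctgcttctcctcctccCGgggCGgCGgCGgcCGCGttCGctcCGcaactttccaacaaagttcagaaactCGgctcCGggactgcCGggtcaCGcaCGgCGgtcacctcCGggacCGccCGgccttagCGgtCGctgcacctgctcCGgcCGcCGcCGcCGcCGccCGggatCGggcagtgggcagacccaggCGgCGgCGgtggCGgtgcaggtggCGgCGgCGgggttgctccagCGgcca
Gbx2: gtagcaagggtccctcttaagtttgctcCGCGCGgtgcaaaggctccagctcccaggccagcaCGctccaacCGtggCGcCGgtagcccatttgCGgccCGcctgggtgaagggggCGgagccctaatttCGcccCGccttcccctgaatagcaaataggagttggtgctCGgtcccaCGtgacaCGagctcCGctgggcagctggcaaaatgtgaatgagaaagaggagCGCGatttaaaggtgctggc
En1: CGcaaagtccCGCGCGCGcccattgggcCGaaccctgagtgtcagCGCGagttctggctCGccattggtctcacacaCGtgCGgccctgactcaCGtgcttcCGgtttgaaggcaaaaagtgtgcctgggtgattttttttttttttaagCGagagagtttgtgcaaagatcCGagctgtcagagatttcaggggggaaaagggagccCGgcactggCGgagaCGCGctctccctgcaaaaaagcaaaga
Emx1: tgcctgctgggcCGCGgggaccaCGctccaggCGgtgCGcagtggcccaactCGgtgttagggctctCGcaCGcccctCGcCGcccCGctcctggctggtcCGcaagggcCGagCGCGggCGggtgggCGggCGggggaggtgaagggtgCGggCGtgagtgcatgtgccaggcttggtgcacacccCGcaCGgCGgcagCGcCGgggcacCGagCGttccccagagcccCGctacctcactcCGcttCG
Emx2: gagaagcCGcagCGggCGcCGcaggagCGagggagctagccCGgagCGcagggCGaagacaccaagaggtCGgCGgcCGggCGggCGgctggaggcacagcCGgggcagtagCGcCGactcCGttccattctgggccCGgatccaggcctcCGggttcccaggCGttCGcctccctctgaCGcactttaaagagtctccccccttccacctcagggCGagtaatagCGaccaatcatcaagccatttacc

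The RefSeq table held 11 starts of 7 members: 1 each for Gbx2, En1, Barhl2, Emx1 and Emx2, 2 for Barhl1 and 4 for Otx2. Otx1, En2 and Gbx1 had no entry and are described by the low and high ends of their coordinates. The Barhl2 start region holds 36 CpG (the motif CG, which reads the same on both strands), Emx1 30, Emx2 24, En1 19 and Gbx2 18. The 2 Barhl1 starts hold 7 and 12, and the 4 Otx2 starts 6 to 14. Over all 32851 promoters in the table, the median was 6 and the quartiles were 2 and 16, and 92.1% held at least 1.

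CpG-rich start regions did not all carry coverage. In the bins over the Barhl2 sequence, coverage was 0.0837 in EV, 0.0490 in full and 0.778 in Base medium. Over the Gbx2 sequence it was 0.0502, 0.196 and 0.568 in the same order. Over the En1 sequence it was 0, 0.245 and 0.482. In these 3 genes, Base medium was the highest library. The Emx1 sequence had 0, 0.294 and 0.130, highest in full medium. The Emx2 sequence, with more CpG than En1 or Gbx2, had 0.0502 in EV and no overlap in either Braf library. These values rest on 2 or 3 bins and at most 63 overlaps, and the bins reach beyond the printed bases. The CpG-poorer starts of Barhl1 and Otx2 lay between 0 and 0.0980 in all libraries.

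**Figure D1:**
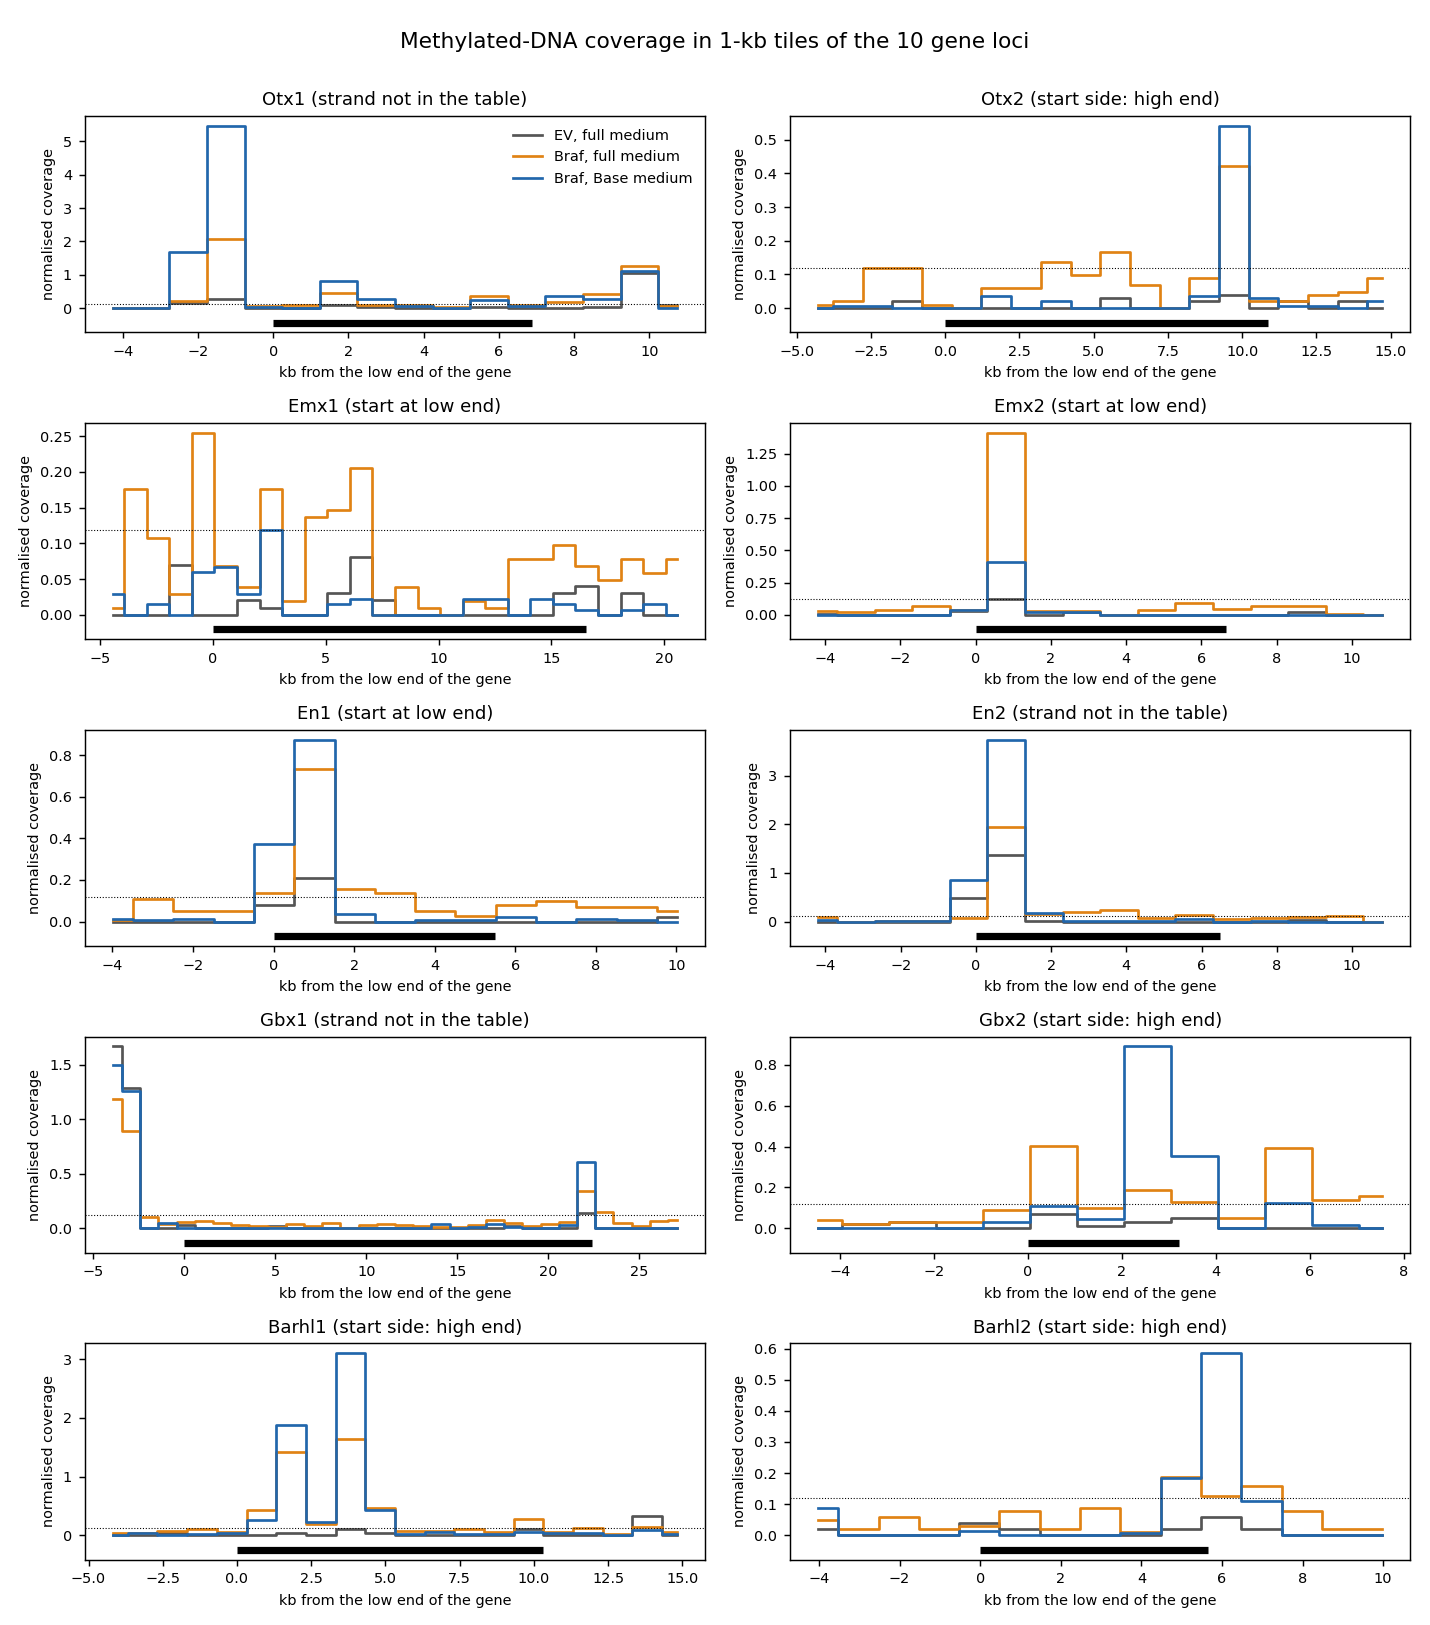
Normalised coverage (y axis, scaled separately for each gene) in 1-kb tiles against the distance in kb from the low end of each gene (x axis), for the EV (grey), Braf full medium (orange) and Braf Base medium (blue) libraries. The black bar is the gene and the dotted line the coverage minimum of 0.119. Narrow peaks stand at Otx1, En2 and Barhl1, with Braf Base medium highest, and the peaks at the low-end flank of Gbx1 are alike in the 3 libraries.

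Otx1, at chr11:21994764-22001651, carried the highest coverage of the 10 loci in both Braf libraries. Its locus mean was 0.103 in EV, 0.320 in full and 0.605 in Base medium. The libraries thus stood in the order EV, Braf full medium, Braf Base medium. The plain ratio to EV was 3.11 in Braf full medium (95% interval 2.37 to 4.11) and 5.89 in Braf Base medium (4.58 to 7.63). These intervals, like those of all ratios below, are exact binomial on estimated reads and cover counting error only. The largest difference lay in 1 tile, chr11:21993001-21994000, just outside the low end of the gene. That tile had 0.281 in EV, 2.07 in full and 5.46 in Base medium, and it held 52.6% of the tile coverage of the locus in Base medium. Its ratio of Base to full medium was 2.64 (2.08 to 3.40). The tile before it, farther from the gene, had 0.141, 0.225 and 1.67. There, the ratio of Braf full medium to EV was undecided (1.60, interval 0.521 to 5.30, from 10 and 6 estimated reads). Base medium was 7.43 times full medium (3.67 to 15.2). A tile beyond the high end, chr11:22004001-22005000, had 1.05, 1.26 and 1.12. It was covered in all 3 libraries to within counting error, in the same locus. Inside the gene, the tile at chr11:21996001-21997000 had 0.0803, 0.441 and 0.80. The long noncoding RNA gene Gm32517 lies within Otx1, and Ehbp1 reaches into the high-end flank.

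Otx2, at chr14:48656781-48667644 on the reverse strand, had far less coverage than its paralog. Its locus mean was 0.00805 in EV, 0.0777 in full and 0.0339 in Base medium. All 3 values lie under the coverage minimum of 0.119, so Otx2 was not called although its log2 ratio of full medium to EV was 1.02. The locus had 1 covered tile in Base medium, chr14:48666001-48667000, centred 1.01 kb downstream of the nearest listed start. It had 0.0402 in EV, 0.421 in full and 0.541 in Base medium. Both Braf libraries exceeded EV there, Base medium by 13.5 times (2.70 to 92.4, from 2 estimated reads in EV). Base and full medium differed by less than counting error (ratio 1.28, 0.671 to 2.39). That tile held 75.3% of the tile coverage of the locus in Base medium and 26.5% in full medium.

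Emx1, at chr6:85187931-85204463, was the locus with the least coverage in Base medium. Its locus mean was 0.0124 in EV, 0.0768 in full and 0.0185 in Base medium. EV and Base medium differed by less than counting error (ratio 1.5, 0.763 to 3.23). In Braf full medium, 6 tiles of the locus passed the minimum, the highest at only 0.255. In EV and in Base medium none did, although 1 tile in Base medium fell just short. The highest tile in full medium lies across the start of the gene and had 0, 0.255 and 0.0593. It rests on 11 estimated reads in full medium and 3 in Base medium. With the genome-wide background subtracted, the log2 ratio of the locus in full medium to EV was 0.43 for Emx1 and 0.54 for Otx2, against 0.92 and 1.02 as deposited.

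Emx2, at chr19:59458690-59465357, had a narrow peak just inside the gene, in the tile chr19:59459001-59460000, centred 0.81 kb downstream of its start. That tile had 0.120 in EV, 1.41 in full and 0.407 in Base medium. Full medium was highest and exceeded EV 11.7 times (4.62 to 36.4). Base medium lay between them, with a ratio to full medium of 0.289 (0.166 to 0.471). It was the only covered tile of the locus in each of the 3 libraries. The locus mean was 0.0125, 0.120 and 0.0291, so Emx2 was called gained with Braf in full medium and lost from full to Base medium. Both calls sit near their limits, since 0.120 barely passes the minimum and the log2 ratio of the loss was -1.02. Neither call held with the genome-wide background subtracted (log2 ratios 0.96 and -0.66). The high end of the antisense gene Emx2os lies just before the start of Emx2.

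En1, at chr1:120602487-120607991, had locus means of 0.0199 in EV, 0.118 in full and 0.0883 in Base medium. Its peak was the tile chr1:120603001-120604000, centred 1.01 kb downstream of the start. That tile had 0.211, 0.735 and 0.874. Both Braf libraries exceeded EV there, by 3.49 times (1.65 to 9.27) in full and 4.15 times (2.07 to 10.8) in Base medium. The tile across the start had 0.0803, 0.137 and 0.370, with Base medium above EV by 4.61 times (1.46 to 25.8). The locus mean of 0.118 in full medium fell just short of the minimum, so En1 was not called although its log2 ratio to EV was 1.16.

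En2, at chr5:28165696-28172190, was among the loci already covered in EV. Its locus mean was 0.114 in EV, 0.196 in full and 0.297 in Base medium. The peak was the first full tile inside the low end, chr5:28166001-28167000, with 1.38, 1.95 and 3.74. EV and full medium were within counting error there (ratio 1.42, 0.994 to 2.03), and Base medium exceeded full medium 1.92 times (1.49 to 2.53). The tile across the low end behaved differently: it had 0.482, 0.0784 and 0.859. Full medium was the lowest library there, at 0.163 times EV (0.0284 to 0.509), and Base medium was 11 times full medium (3.91 to 61.0). This was the 1 member tile called lost with Braf in full medium. The locus as a whole was called gained in Base medium against EV, with a ratio of 2.60 (2.01 to 3.40) and a log2 ratio of 1.04, close to the threshold of 1.

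Gbx1, at chr5:24504426-24526848, was the locus with the most even coverage over the libraries. Its locus mean was 0.115 in EV, 0.127 in full and 0.126 in Base medium. The ratio to EV was 1.1 (0.880 to 1.38) in full and 1.09 (0.885 to 1.35) in Base medium. Most of it came from the low-end flank, where the gene Agap3 ends. The tile chr5:24500001-24501000 had 1.67, 1.19 and 1.5 and the next 1.28, 0.892 and 1.26. The high end of Gbx1 differed from this flank: the tile across it, chr5:24526001-24527000, had 0.141, 0.343 and 0.608. Base medium exceeded EV there 4.32 times (1.68 to 11.8).

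Gbx2, at chr1:89927962-89931176 on the reverse strand, had locus means of 0.0157 in EV, 0.134 in full and 0.117 in Base medium. The means of the Braf libraries were alike (ratio of Base to full medium 0.876, interval 0.629 to 1.20), but the tiles behind them were not. Near the start, the tile chr1:89930001-89931000 had 0.0301, 0.186 and 0.889, and the tile across the start 0.0502, 0.127 and 0.356. Base medium was 4.78 times full medium in the former (2.18 to 11.4) and 2.79 times in the latter (1.06 to 10.1). At the far end of the gene, the tile chr1:89928001-89929000 had 0.0703, 0.402 and 0.111. Upstream, chr1:89933001-89934000, where the predicted gene LOC102637806 lies, had 0, 0.392 and 0.126. In these places full medium was the highest library, and Base medium had 0.277 times (0.0884 to 0.728) and 0.321 times (0.112 to 0.810) its coverage. Gbx2 was called gained in full medium. In Base medium its log2 ratio to EV was 1.23, but 0.117 lies just under the minimum.

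Barhl1, at chr2:28907680-28917984 on the reverse strand, gained coverage in both Braf libraries against EV. Its locus mean was 0.0330 in EV, 0.270 in full and 0.311 in Base medium. The ratio to EV was 8.20 (5.49 to 12.7) in full and 9.44 (6.36 to 14.5) in Base medium. In Base medium the 5 covered tiles were neighbours inside the gene, at and downstream of the second listed start. The highest, chr2:28911001-28912000, centred 0.99 kb past that start, had 0.10, 1.64 and 3.10. Base medium exceeded full medium there 1.90 times (1.43 to 2.55). The other peak, chr2:28909001-28910000, had 0.0301, 1.42 and 1.87, with EV resting on 1 estimated read. Beyond the high end of the gene, the tile chr2:28921001-28922000 ran the other way, with 0.321, 0.137 and 0.0889. It was the 1 member tile called lost in Base medium against EV, and it rests on 13, 6 and 5 estimated reads. Ddx31 ends in the low-end flank.

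Barhl2, at chr5:106452523-106458166 on the reverse strand, had locus means of 0.0114 in EV, 0.0633 in full and 0.0628 in Base medium. The Braf libraries had the same mean within counting error (ratio 0.993, 0.654 to 1.53). The tile across the start, chr5:106458001-106459000, however, had 0.0602, 0.127 and 0.585. Base medium was 4.59 times full medium there (1.92 to 16.3). The tile next to it inside the gene had 0.0201, 0.186 and 0.185.

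**Figure D2:**
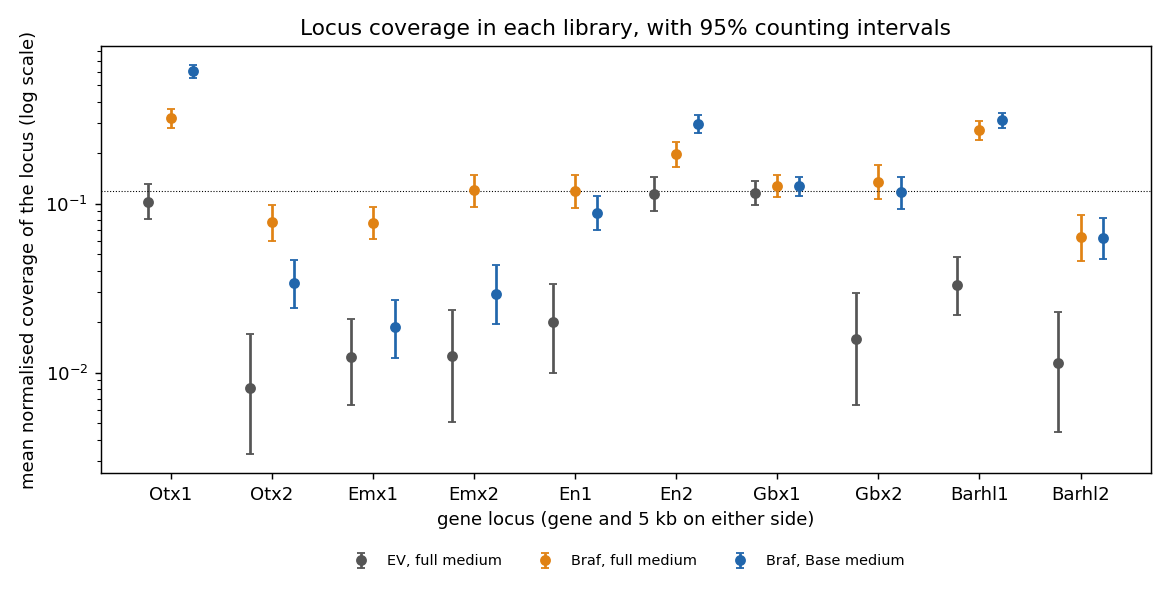
Mean normalised coverage of each locus (y axis, log scale) for the 10 genes (x axis) in the 3 libraries, with exact Poisson 95% intervals of the estimated reads as bars, which cover counting error only. The dotted line is the coverage minimum of 0.119. As deposited, EV is the lowest library at all 10 loci (at Gbx1 not with background subtracted or equal totals), and at Gbx1 the 3 values lie from 0.115 to 0.127.

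Activated Braf against EV in full medium, the first comparison, asks what goes with the oncogene after long culture. All 10 loci had a higher mean in Braf full medium than in EV, but Gbx1 turned to a log2 ratio of -0.25 with the genome-wide background subtracted and to -0.37 with equal totals, and the other 9 stayed above 0. Otx1, Emx2, Gbx2 and Barhl1 were called gained and none was called lost. A call needed a log2 ratio of at least 1 or at most -1, with 0.0597 added to each coverage, and a coverage of at least 0.119 in the higher library. By this rule 1.8% of all 20665 protein-coding loci gained and 0.0387% lost. The median log2 ratio was 1.09 over the members and 0.49 over all loci. With that median, most of all loci also had more coverage than in EV, and their exact share was not counted. A locus mean dilutes a narrow peak in a long window, and the member windows, with a median of 17 kb, are shorter than those of all genes, with a median of 27.6 kb.

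In 1-kb tiles, which have 1 size, 37 of 189 member tiles (19.6%) gained and 1 (0.529%) was lost. Over all tiles of protein-coding loci, 3.13% gained and 0.454% lost. Here and below, all tiles were not matched to member tiles for CpG content, which was not computed for tiles. Every member had at least 1 gained tile. Barhl1 had 7, Otx1, Emx1 and Gbx2 had 5 each, En2 had 4, Otx2 and En1 had 3, Gbx1 and Barhl2 had 2 and Emx2 had 1. Of the 37, 23 stayed below 0.298 in Braf full medium, which is 5 times the mean coverage. The raised background of that library moves with these weak gains. With its genome-wide median subtracted, 23 member tiles gained (12.2%) and 2 were lost, against 0.868% and 0.891% of all tiles. Of the loci, Otx1 and Barhl1 kept their calls, and 0.919% of all loci gained.

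Base against full medium, both with Braf, addresses growth without niche factors. The highest tile of each library in the locus had more coverage in Base medium at 8 of 10 members, the exceptions being Emx1 and Emx2. In 7 members it was the same tile in both Braf libraries. Among these, Base medium exceeded full medium beyond counting error at Otx1, En2 and Barhl1 and fell short of it at Emx2, and at Otx2, En1 and Gbx1 the interval of the ratio included 1. At Emx1, Gbx2 and Barhl2 the highest tiles were different ones. The locus mean was higher in Base medium at only 3 of 10, Otx1, En2 and Barhl1, but at 7 with the genome-wide background subtracted or with equal totals, when En1, Gbx1, Gbx2 and Barhl2 turned. At En1, Gbx1, Gbx2 and Barhl2 the interval of the ratio as deposited included 1. The ratio was 1.89 (1.62 to 2.21) at Otx1, 1.52 (1.23 to 1.88) at En2 and 1.15 (0.970 to 1.36) at Barhl1. At Otx2, Emx1 and Emx2 the interval lay below 1, with ratios of 0.437 (0.288 to 0.659), 0.241 (0.150 to 0.374) and 0.242 (0.154 to 0.384). The surroundings of these loci, within 1 Mb, were also lower in Base medium, with plain log2 ratios of -1.39, -1.19 and -1.45. So were those of Otx1, En2 and Barhl1, at -1.09, -1.48 and -1.21, although these 3 loci had a higher mean in Base medium. With the genome-wide background subtracted, the log2 ratios of the Otx2, Emx1 and Emx2 loci were -0.07, -0.31 and -0.66. No locus was called gained and 1, Emx2, was called lost, where 0.126% and 0.745% of all loci were. The median log2 ratio was -0.07 over the members and -0.51 over all loci.

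Of the 189 member tiles, 8 (4.23%) gained and 18 (9.52%) were lost from full to Base medium, against 0.205% and 3.29% of all tiles. The gains were 3 at Otx1, 2 at Gbx2 and 1 each at En1, En2 and Barhl2. The losses were led by Emx1 with 5 and Gbx2 with 4, and 15 of the 18 had a coverage below 0.298 in full medium. Of the 189 tiles, 47 (24.9%) passed the minimum in full medium and 28 (14.8%) in Base medium. Over all tiles of protein-coding loci the shares were 8.33% and 4.69%, a fall of like proportion. With the background subtracted, 9 member tiles gained and 10 were lost, and 0.385% and 0.884% of all tiles did. With equal totals, 18 gained and 5 were lost, so the balance between gains and losses turned, and so it did over all tiles, of which 1.66% gained and 0.63% lost.

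The third comparison sets Braf Base medium beside EV, both with a low background. All 10 loci again had more coverage than in EV, and at 8 the interval of the ratio lay above 1, Emx1 and Gbx1 being the exceptions. Otx1, En2 and Barhl1 were called gained, with log2 ratios of 2.03, 1.04 and 2.0, and none was called lost. Of all loci, 1.12% gained and 0.208% lost. The median log2 ratio was 0.84 over the members and -0.00164 over all loci. The share of all loci with more coverage than in EV, or with an interval above 1, was not counted. In tiles, 24 of 189 (12.7%) gained and 1 was lost, against 0.462% and 1.04% of all tiles. Otx1 had 7 of the gained tiles, Barhl1 5, Gbx2 3, and En1, En2 and Barhl2 2 each. Otx2, Emx2 and Gbx1 had 1 each and Emx1 none.

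**Figure D3:**
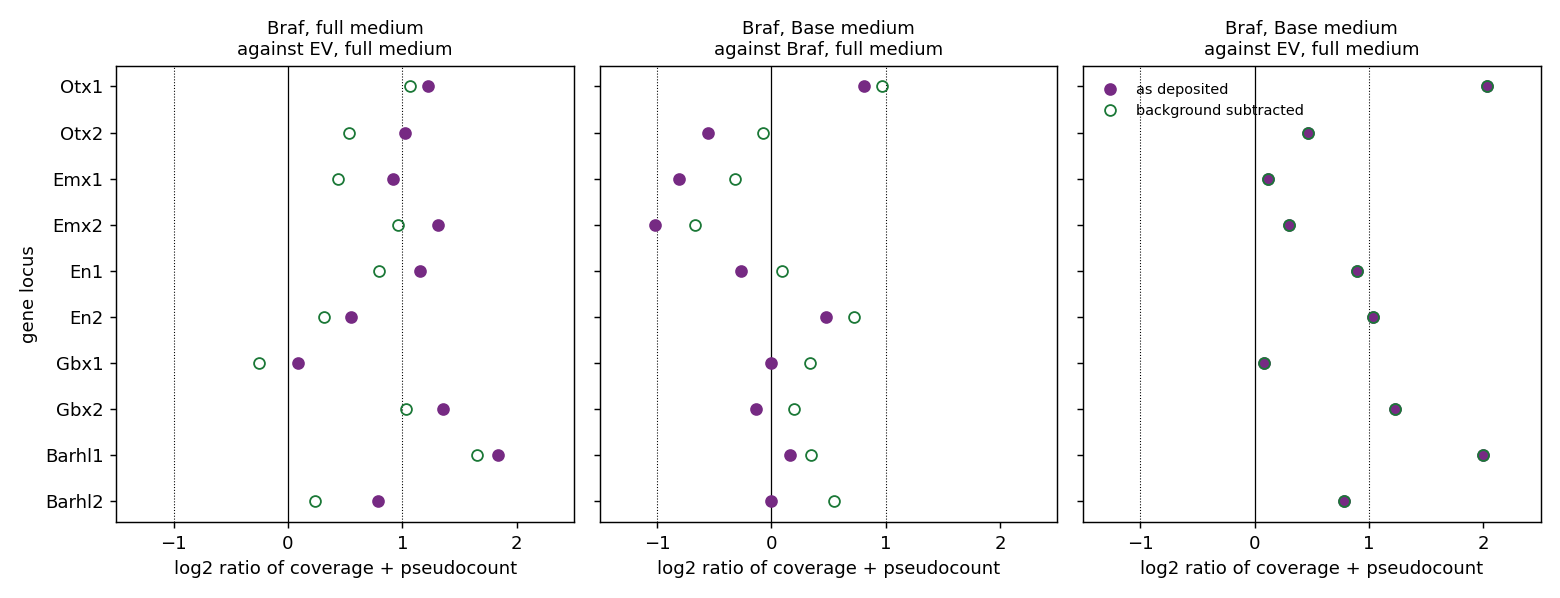
Log2 ratio of locus coverage plus the pseudocount (x axis) for the 10 loci (y axis) in the 3 comparisons, as deposited (filled) and with each library's genome-wide median tile subtracted (open). Dotted lines mark ratios of 1 and -1. Subtraction lowers the ratios of Braf full medium against EV, turning that of Gbx1 below 0, raises those of Base against full medium, turning 4 above 0, and does not move those of Base medium against EV.

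**Figure D4:**
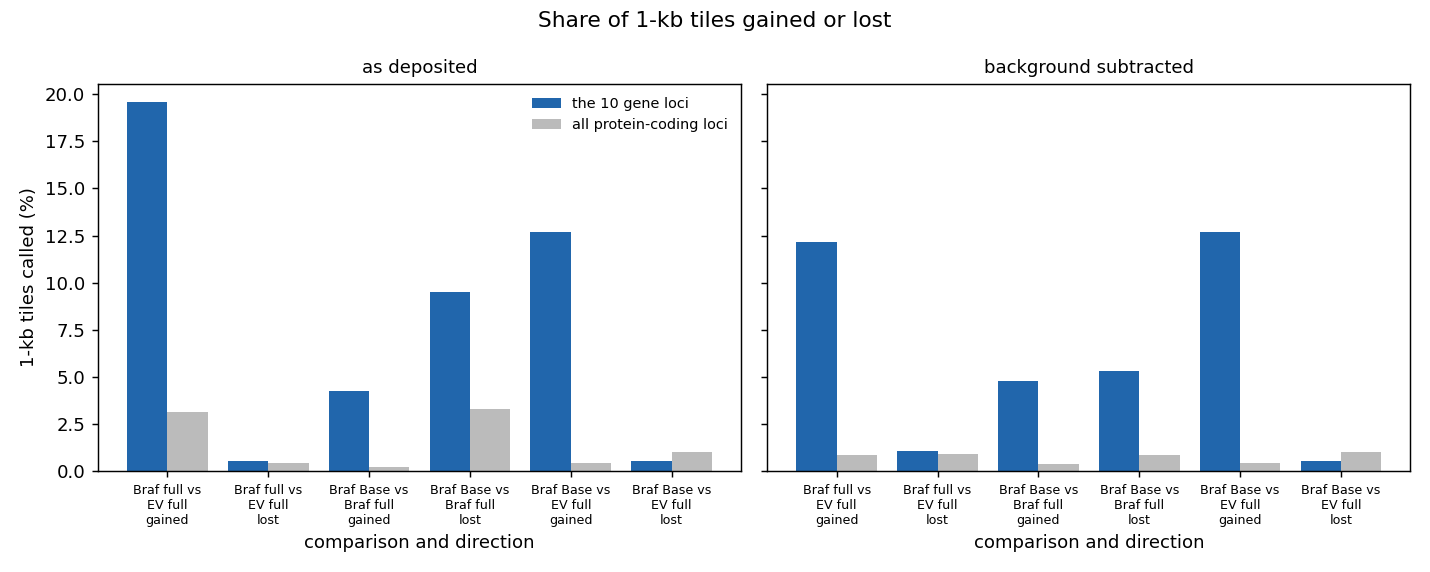
Share of 1-kb tiles called gained or lost (y axis, percent) in the 10 gene loci (blue) and in all protein-coding loci (grey), for the 3 comparisons, as deposited (left) and with background subtracted (right). In Base medium against EV, 12.7% of member tiles and 0.462% of all tiles gained. The tiles were not matched for CpG content.

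Both comparisons against EV use the same EV library, so their shared gains are not independent. In EV, 11 of the 189 member tiles (5.82%) passed the minimum, close to the 5.50% of all tiles: 3 each at Otx1 and Gbx1, 2 at En2 and 1 each at Emx2, En1 and Barhl1. Of these 11 tiles, 6 gained further in Base medium and 1 was lost, where 2.65% and 19.0% of all tiles covered in EV did. Of the 178 tiles under the minimum in EV, 18 gained, and 0.335% of all such tiles did. In 6 of the 7 members with a listed start, the highest tile in Base medium passed the minimum. In 5 of the 6 it was centred 0.68 to 1.01 kb downstream of the nearest listed start, and at Barhl2 it lay across the start. At Emx1, where it did not pass, it was centred 2.57 kb downstream. At Otx2, Emx2 and En1 the same tile was also the highest in EV and in full medium, and at Barhl1 in full medium. Otx1, En2 and Gbx1 have no listed start and are left out. How often other genes have such a position was not counted.

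In 3 of the 5 pairs, paralogs differed in level beyond their counting intervals. In Base medium the locus means of Otx1 and Otx2 were 0.605 and 0.0339, those of Barhl1 and Barhl2 0.311 and 0.0628 and those of En2 and En1 0.297 and 0.0883. Gbx1 and Gbx2 were alike at 0.126 and 0.117, but in Gbx1 this was mostly the flank that all 3 libraries covered. The Emx genes were the lowest, at 0.0185 and 0.0291, with overlapping intervals. In the order of Base medium means, Otx1 stood above Barhl1 and En2, whose counting intervals overlap. Gbx1, Gbx2, En1 and Barhl2 followed, each overlapping its neighbour, and then Otx2, Emx2 and Emx1, which also overlap in turn.

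Other genes of forebrain and midbrain-hindbrain patterning were counted by the same locus rule. Of 19 such genes, 4 gained and 0 lost with Braf in full medium, 2 gained and 0 lost from full to Base medium, and 4 gained and 0 lost in Base medium against EV. Of all loci, 1.8%, 0.126% and 1.12% gained. The median log2 ratios of the 19 were 0.72, -0.41 and 0.18. Irx3, an Iroquois factor, had 0.0277 in EV, 0.359 in full and 0.424 in Base medium. Six6, a factor of eye and pituitary, had 0.0159, 0.166 and 0.139. Pax6, a factor of eye and forebrain, had 0.00731, 0.134 and 0.0836, and Fgf8, a growth factor of the midbrain-hindbrain boundary, had 0.0762, 0.214 and 0.166. Dmrta2, a cortical patterning factor, had 0.333, 0.252 and 1.30, and Sp8 had 0.0845, 0.134 and 0.337; these were the 2 gained from full to Base medium. With background subtracted, 2 of the 4 gains in full medium remained, Irx3 and Six6.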

How the data were processed

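MBD-seq was done on 3 organoid libraries, 1 per group: 100 to 200 ng of DNA, per the labels' protocols, was sheared to 200 to 400 bp, captured on MBD beads and sequenced as 50-bp single reads. The submitters' processing notes name Bowtie2 and mm10. How values per bin were made is not stated. The deposited values are log2, made by the authors, for 200-bp bins of chromosomes 1 to 19. Raised to linear scale, each equalled 0.0153, a floor, plus whole steps (0.0502 in EV, 0.0490 in Braf full medium, 0.0370 in Braf Base medium), within 0.001 of a step. These whole numbers were taken as read overlaps, and overlaps times the step as normalised coverage. The authors' scaling of the libraries is kept as the main setting. Overlaps were divided by 2.49, 2.42 and 2.48 bins per lone read to estimate reads.

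Gene spans and start sequences are from RefSeq on GRCm38.p6. Coverage was averaged over loci and over 1-kb tiles (5 bins) lying wholly in a locus. In EV a tile at the minimum of 0.119 holds about 4.78 reads. Ratios have Clopper-Pearson 95% intervals on estimated reads, which cover counting error only. Calls used Python 3.11.15 with numpy 2.4.6 and scipy 1.17.1. The rule for loci was tried on simulated counts of Base medium against EV, with changes placed only in loci better covered in EV. Calls of tiles and the raised background of Braf full medium were not simulated. All 10 members were to be named. Of the patterning list, at most 4 called genes per comparison with the largest log2 ratios were. One gene of that list is not reported here. Members and lists were chosen with earlier results of these data known.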

Additional observations from a re-analysis of the deposited data

How the results depend on the processing

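The log2 ratios of the called loci kept their sign under 8 alternatives of scaling, background, pseudocount and flank. No paired analysis was possible because each group has 1 library and leaving a replicate out was not possible. Of the 240 log2 ratios of single loci recomputed, 205 counted as unmoved and 35 as moved, judged against the counting interval. A shift smaller than the full width of that interval could count as moved. Among loci not called, signs did change: from full to Base medium, the loci with more coverage were 3 as deposited, 4 with no flank, 5 with 2-kb flanks or an equal median of covered tiles, and 7 with equal totals or either background subtracted. The median over all loci, 0.49 for full medium against EV and -0.51 for Base against full medium, became -0.03 and 0.02 with the genome-wide background subtracted and 0.20 and -0.16 with equal totals. The cause of the changes below was not tested.

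Loci gained with Braf in full medium, 4 as deposited, were 1 with equal totals or a minimum of 5 times the mean, 2 with either background subtracted and 0 with 4 times the pseudocount. Of all loci, 1.8% gained as deposited, 0.513% with equal totals and 0.919% with the genome-wide background subtracted. In Base medium against EV the gained loci were 5, in place of 3, with 2-kb flanks or none. They were 4 with equal totals, an equal median of covered tiles or no minimum, and 2 with the higher minimum or the larger pseudocount. Of all loci, 1.12% gained as deposited, 1.74% with equal totals and 1.79% with an equal median of covered tiles. From full to Base medium, 2 loci gained with equal totals and 1 with 2-kb flanks, in place of 0. Of all loci, 0.126% gained as deposited and 1.7% with equal totals. The 1 lost locus became 0 with equal totals, an equal median of covered tiles, either background subtracted, the higher minimum or the larger pseudocount. Of all loci, 0.745% were lost as deposited. The share was 0.135% with equal totals, 0.677% with an equal median of covered tiles and 0.261% with the genome-wide background subtracted.

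Of member tiles, the 37 gained in full medium became 14 with the higher minimum or the larger pseudocount, 21 with equal totals, 23 with either background subtracted and 74 with no minimum. Of all tiles, 3.13% gained as deposited, 0.718% with equal totals and 0.868% with the genome-wide background subtracted. The 1 member tile lost in full medium became 4 with equal totals and 2 with either background subtracted or a pseudocount 0.25 times as large. In the same order as for gains, 0.454%, 1.66% and 0.891% of all tiles were lost. From full to Base medium, the 8 gained became 18 with equal totals and 5 with the larger pseudocount. Of all tiles, 0.205% gained as deposited and 1.66% with equal totals. The 18 member tiles lost became 3 with the higher minimum, 5 with equal totals, 10 with either background subtracted, 45 with no minimum and 1 with the larger pseudocount. Of all tiles, 3.29% were lost as deposited, 0.63% with equal totals and 0.884% with the genome-wide background subtracted. In Base medium against EV, the 24 gained became 15 with the larger pseudocount and 16 with the higher minimum. The 1 lost became 0 with the larger pseudocount and 3 with no minimum. Shares over all loci and tiles were computed only for the settings of scaling and genome-wide background. The counts under other flanks, minimums, pseudocounts or the local background therefore have no such share beside them.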
